A study of Mus musculus with 20 samples.

Results

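The translation initiation and elongation factors described here are 57 of the 22416 gene rows in the deposited footprint count table of mouse embryonic stem cells. They were taken by name, as every gene starting with Eif1, Eif3, Eif4, Eif5, Eif6, Eef1 or Eef2 together with Pabpc1, so that all genes named Eif2 were left out. The study set knock-in cells whose eIF2α carries alanine in place of the serine that stress kinases phosphorylate (eIF2α A/A, KI) against eIF2α+/+ cells (WT). Each genotype was kept for 6 days in LIF/2i, which is LIF with the MEK inhibitor PD0325901 and the GSK3 inhibitor CHIR99021, or in LIF without these inhibitors. All groups shared a serum-free medium with KnockOut serum replacement and 1000 U/mL LIF, and all lysates were made with cycloheximide, which holds ribosomes on their mRNA. Ribosome-protected fragments of 25 to 40 nt were released with micrococcal nuclease (MNase, 3 libraries per group, 12 in all) or with RNase I (2 per group, 8 in all). The labels do not say how many cell lines or clones stand behind a genotype, nor whether replicates were separate cultures. P-values therefore measure the spread between samples as labelled. The questions the design implies are whether footprints on these genes differ between KI and WT in each medium, whether they differ between media in each genotype, and whether the nuclease matters.

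Eukaryotic initiation starts when a small ribosomal subunit carrying eIF1, eIF1A, eIF3, eIF5 and the eIF2 complex with initiator tRNA is brought to the mRNA cap by eIF4E, the scaffold eIF4G and the helicase eIF4A. The 4E-binding proteins hold eIF4E away from eIF4G. After start codon recognition eIF5B joins the large subunit, whose early association eIF6 prevents. In elongation eEF1A delivers aminoacyl-tRNA and is recharged by the exchange factors of the eEF1 complex, and eEF2 moves the ribosome along. Phosphorylation of eIF2α, which the knock-in removes, normally limits recycling of the eIF2 complex and so lowers general initiation.

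Several of these factors are encoded by mRNAs of the classical 5′ terminal oligopyrimidine (TOP) class, which open with a C followed by pyrimidines and whose translation depends on mTOR. Among the members 10 were counted as TOP genes (Eef1a1, Eef1b2, Eef1d, Eef1g, Eef2, Eif3e, Eif3f, Eif3h, Eif4b and Pabpc1). Windows of 30 bases from the RefSeq promoter table of build GRCm38.p6, on the gene's own strand, are shown for 4 of them because TOP genes are followed as a group through the comparisons. Capitals mark the longest run of C and T that starts with C, searched from 20 bases before to 40 after the annotated start. The annotated start is not a start measured in these cells.
Eef1a1 (chr9:78481708-78481737, minus strand): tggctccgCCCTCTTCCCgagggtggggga
Eef1b2 (chr1:63176851-63176880, plus strand): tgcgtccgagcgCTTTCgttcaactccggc
Eif3f (chr7:108934403-108934432, plus strand): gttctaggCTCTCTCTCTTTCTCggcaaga
Eif4b (chr15:102073775-102073804, plus strand): ccgcgccaCCCCCTCgcgctgctttacgaa
The runs measured 10 bases in Eef1a1, 5 in Eef1b2, 15 in Eif3f and 7 in Eif4b. Relative to the annotated start they began at −5 in Eef1a1, 33 in Eef1b2, −4 in Eif3f and 11 in Eif4b. The runs of Eef1b2 and Eif4b thus do not open the annotated transcript, and the Eef1b2 window does not reach its start. Of the TOP genes 5 had an entry, the other being Eef2 with a run of 7 that began at 16. A run of at least 7 was found in 4 of these 5. It was also found in 14 of the 35 members with an entry that are not counted as TOP genes. The same search found one in 29% of all 27025 genes with a promoter entry, so a run of this length by itself does not mark a TOP gene.

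MNase libraries held 2127850 to 5461210 counts in WT and 6560173 to 8894080 in KI, so depth did not overlap between the genotypes, and RNase I libraries held 1965050 to 22916734. The members took 1.42% to 1.80% of counts with MNase and 1.22% to 1.60% with RNase I. Markers of mouse embryonic stem cells were present throughout, at a summed 4996 to 6748 CPM (footprint counts scaled to the TMM-adjusted library total) over the MNase libraries. Some of these 10 genes differed between genotypes at an edgeR adjusted p under 0.05. In LIF/2i Lin28a (log2 change 3.29), Utf1 (0.51) and Esrrb (0.43) were higher in KI and Sox2 (−0.66) lower. In LIF Nanog (−0.76), Dppa5a (−0.63) and Sox2 (−0.49) were lower. The others did not pass. In LIF, 11 trophoblast markers summed to 578 to 802 CPM in WT and to 334 to 345 CPM in KI with MNase, and 10 endoderm markers to 901 to 1071 and 594 to 698 CPM. In LIF/2i the same trophoblast markers summed to 199 to 267 CPM in WT and 107 to 276 CPM in KI. The part of these markers in the results was not tested, and fewer cells of a type and less RNA per cell cannot be told apart in such bulk libraries. In both media the first KI replicate with MNase was unlike the other 2, with a chi-square per gene of 24.8 to 29.4 against 3.12 and 6.24 between replicates 2 and 3. Comparisons are therefore also given without KI replicate 1. Of the 57 members, 53 passed the filter on low counts in every fit, and Eif4e1b, Eif4a3l1, Eif4a3l2 and Eef1akmt3 did not. The tested members had a median level of 141 CPM with MNase, against 28.0 CPM over all tested genes. Small changes pass more easily at higher counts, and the shares of all genes given below were not matched for level.

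With MNase in LIF/2i, more translation factor genes were higher in KI than lower, across initiation and elongation. Footprints rose on 18 of the 53 members tested and fell on 4 (edgeR quasi-likelihood test, adjusted p under 0.05 over all tested genes), while 13.8% of all 12806 genes were higher and 11.5% lower, 25.4% in either direction. The median log2 change of the members was 0.32, against 0.01 over all tested genes, and 37 of 53 were positive. KI and WT libraries did not overlap for 32 of the 53, against 39.8% of all genes. By role, the gains were on 7 of 14 eIF3 subunits, 4 of 7 start-site factors and 4 of 6 genes of the eEF1 group. Roles were given by gene name, which places Eif1ad among the start-site factors and Eef1e1 in the eEF1 group. TOP genes counted 5 higher and 1 lower of 10, with a median of 0.34, and the others 13 higher and 3 lower of 43, with a median of 0.32.

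eIF3 is the large multisubunit factor that holds the small subunit and the mRNA together. Eif3l, a peripheral subunit, was at 818, 741 and 590 CPM in the WT libraries and at 1355, 1286 and 1234 CPM in KI. The KI libraries lay well above all WT libraries, and the log2 change was 0.85 (SE 0.13, edgeR adjusted p = 0.0011). Eif3c, a core subunit, was at 773, 834 and 738 CPM in WT and at 1197, 1535 and 1503 CPM in KI. Again no library of one genotype reached the other, with a rise of 0.85 (SE 0.15, edgeR adjusted p = 0.0022). The scaffold subunits Eif3a and Eif3b rose by 0.47 and 0.55, and the core subunits Eif3e, Eif3h and Eif3m by 0.69, 0.52 and 0.66. Eif3d at 0.32, Eif3f at 0.18, Eif3g at 0.27, Eif3i at 0.07 and Eif3k at 0.10 did not pass. Summed over its 14 genes, eIF3 reached 7691 ± 239 CPM in the KI libraries against 5436 ± 437 CPM in WT (SD, n = 3).

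The 2 genes for eIF3j, a loosely bound subunit that helps eIF3 bind the small subunit, went the other way. Eif3j1 was at 6.38, 7.63 and 3.69 CPM in WT and at 1.68, 1.15 and 0.565 CPM in KI. All KI libraries lay under all WT libraries, and the change was −2.36 (SE 0.41, edgeR adjusted p = 0.0021). Eif3j2 was at 5.67, 7.63 and 3.44 CPM in WT and at 1.53, 1.15 and 0.565 CPM in KI, with a change of −2.34 (SE 0.42, edgeR adjusted p = 0.0024). These values rest on few reads, with 4 to 55 on Eif3j1 per library. The counts of both genes differed by at most 2 reads in each of the 20 libraries. They are near-identical copies that may share reads, so they are best read as 1 uncertain measurement.

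**Figure D1:**
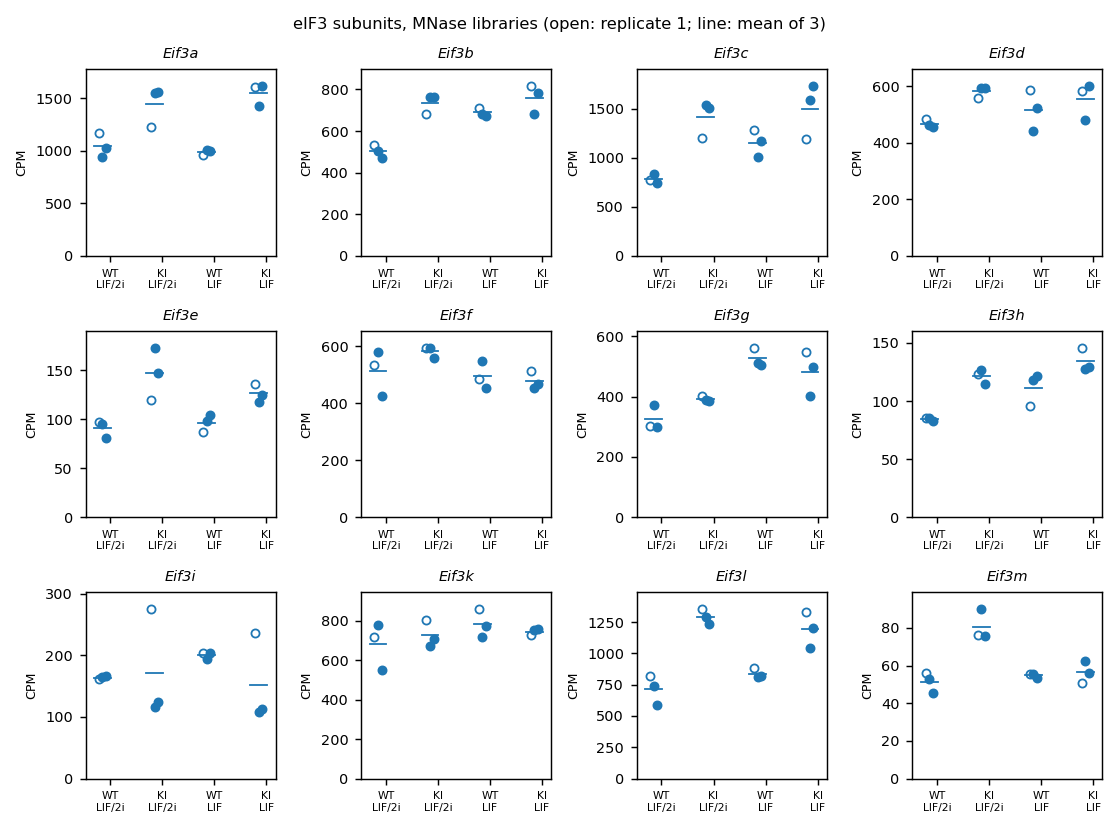
Footprint levels (CPM, linear axes from 0) of 12 eIF3 subunits in the 12 MNase libraries, by genotype and medium. Open circles are replicate 1, filled circles replicates 2 and 3, and lines the mean of 3. Eif3b, Eif3c and Eif3l are higher in all KI than in all WT libraries in LIF/2i, and Eif3i is high in KI replicate 1 alone.

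Among start-site factors, Eif5b, the GTPase that joins the large subunit, was at 298, 294 and 218 CPM in WT and at 492, 500 and 487 CPM in KI. The KI libraries were close together and all above WT, with a rise of 0.87 (SE 0.15, edgeR adjusted p = 0.0021). Eif1ad, which carries an eIF1A-like domain, rose by 0.77, Eif1b, a close relative of eIF1, by 0.79, and Eif1ax, which encodes eIF1A, by 0.58. Eif1 at −0.33, Eif1a at −0.21 and Eif5 at 0.39 did not pass. Eif6, the factor that keeps the subunits apart, rose by 0.51.

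Eif4a3, a relative of eIF4A known as the helicase core of the exon junction complex, was at 11.7, 10.3 and 11.8 CPM in WT and at 26.7, 30.2 and 24.3 CPM in KI. No KI library came near the WT range, and the rise was 1.26 (SE 0.19, edgeR adjusted p = 0.0011). The paralogs Eif4a1 and Eif4a2, the helicases of cap-dependent initiation, were at 0.33 and 0.24 and did not pass. Eif4ebp2, a repressor of eIF4E, fell by 0.63 on the log2 scale, and Pabpc1, the cytoplasmic poly(A)-binding protein, by 0.38. No other gene passed in the class of cap-binding proteins and their inhibitors or in the eIF4G class. At an unadjusted p under 0.05, 2 of 7 genes of the former class and 1 of 3 eIF4G genes were counted. The 2 were the repressor Eif4ebp2 and the eIF4E transporter Eif4enif1, and not Eif4e, Eif4e2 or Eif4e3. DESeq2 also called Eif4enif1 lower by 0.33.

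In elongation the exchange factor subunits Eef1b2, Eef1d and Eef1g rose by 0.49, 0.50 and 0.73. Eef1e1, better known as a scaffold of the aminoacyl-tRNA synthetase complex, rose by 0.33. Eef1akmt2, a lysine methyltransferase of eEF1A, rose by 1.63 from a low level. The main elongation factor genes Eef1a1 and Eef2 were at −0.00 and 0.11, with no call.

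Of the 22 calls, 13 held without any 1 of the 12 libraries, and the count fell to 13 without KI LIF/2i replicate 2. That library was needed for Eif4ebp2 (adjusted p = 0.051 without it), and it or WT replicate 3 for Eef1b2 (0.069 and 0.061). For Eif3a the libraries were WT replicate 2 and KI replicates 2 and 3 in LIF/2i (0.056 to 0.067), and for Eef1g WT replicate 3 and KI replicates 2 and 3 (0.054 to 0.10). Eif6 was lost without 1 of 4 LIF/2i libraries, WT 2 or 3 or KI 1 or 2 (0.069 to 0.11). Eif1b was lost without 1 of 5, any WT or KI 2 or 3 in LIF/2i (0.058 to 0.080). Pabpc1 was lost without 1 of 6, WT 1 or 2 or any KI in LIF/2i or WT LIF 3 (0.052 to 0.12). Eif1ax was lost without 1 of 8, KI 1 or 2 in LIF/2i or any WT library (0.050 to 0.12). Eef1e1 was lost without 1 of 9, KI 2 or 3 in LIF/2i, KI LIF 2 or any WT library (0.052 to 0.15). Without KI replicate 1 in both media all 22 calls held and 3 were added, Eif3i (−0.45), Eef2kmt (−0.59) and Eif4enif1 (−0.37). Calls over all genes rose from 3250 to 4949 in that setting. Scaling by library totals alone moved the median of all genes by −0.10 and turned the split over all genes from 1773 higher and 1477 lower to 1322 and 1935. The members' split went from 18 and 4 to 14 and 6, with Eef1e1, Eif1ax, Eif1b and Eif6 lost. With libraries thinned to the depth of the smallest, Eef1e1, Eef1g, Eif1ax and Eif6 were lost (0.055 to 0.15). With all 20 libraries and a nuclease term Eef1d (0.26, adjusted p = 0.099), Pabpc1 (−0.30, 0.081) and Eef1e1 (0.24, 0.053) were lost, and 12 calls held in every setting tried. Of the markers, 1 of 9 endoderm genes was higher and 2 lower here, and 1 of 9 trophoblast and 1 of 8 fibroblast and feeder genes were higher. Their part was not tested.

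In LIF the genotypes differed on fewer members, 4 higher and 5 lower in KI of 53, with 7.36% and 6.05% of all tested genes, 13.4% in either direction. The members' median log2 change was 0.01, against −0.01 over all genes, and 19 of 53 did not overlap between genotypes, against 35.5% of all genes. Eif3a was at 954, 1003 and 995 CPM in WT and at 1601, 1427 and 1611 CPM in KI, with a rise of 0.65 (SE 0.12, edgeR adjusted p = 0.0050). Eif3l rose by 0.51, and summed eIF3 reached 7739 ± 434 CPM in KI against 6462 ± 287 CPM in WT (SD, n = 3).

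Both 4E-binding proteins that passed were lower in KI. Eif4ebp1, the repressor through which mTOR acts on eIF4E, was at 334, 247 and 372 CPM in WT and at 216, 123 and 115 CPM in KI. The groups did not overlap, and KI replicate 1 was nearest to WT, with a change of −1.07 (SE 0.22, edgeR adjusted p = 0.0086). Eif4ebp2 fell by 0.52 on the log2 scale. Eif1a, which encodes an eIF1A, was at 148, 149 and 137 CPM in WT and at 99.1, 88.0 and 94.3 CPM in KI, a change of −0.62 (SE 0.14, edgeR adjusted p = 0.012). Here too all KI libraries lay under all WT libraries.

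Eif4a3 was at 21.9, 19.0 and 18.8 CPM in WT and at 13.8, 10.7 and 10.3 CPM in KI in LIF, a change of −0.77 (SE 0.19, edgeR adjusted p = 0.019). This is the opposite direction to LIF/2i. In elongation, Eef1a2, the eEF1A form of nerve and muscle, was at 11.4, 13.0 and 17.9 CPM in WT and at 29.8, 22.1 and 32.2 CPM in KI, a rise of 0.96 (SE 0.24, edgeR adjusted p = 0.019). Eef2kmt, the lysine methyltransferase of eEF2, was at 45.6, 43.9 and 39.7 CPM in WT and at 23.7, 17.1 and 18.9 CPM in KI. No KI library came near the WT range, and the change was −1.11 (SE 0.21, edgeR adjusted p = 0.0056). Eef1aknmt, a methyltransferase of eEF1A, rose by 0.56, close to the threshold (edgeR adjusted p = 0.049).

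Of these 9 calls only Eif3a, Eef2kmt and Eif4ebp1 held without any 1 library. The count was 3 without WT LIF replicate 1, 5 without WT LIF replicate 2 or 3, and 4 without KI LIF replicate 3. Eif1a was lost without WT LIF 1 (adjusted p = 0.055), and Eef1a2 without WT LIF 1 or 2 or KI LIF 3 (0.069 to 0.080). Eif4a3 was lost without WT LIF 1 or 3 or KI LIF 2 or 3 (0.058 to 0.085), and Eif3l without any WT LIF library or KI LIF 1 or 3 (0.050 to 0.070). Eif4ebp2 was lost without any WT LIF library, KI LIF 2 or 3 or KI LIF/2i 3 (0.052 to 0.15). Eef1aknmt was lost without 1 of 9 libraries, any but WT LIF/2i 3, KI LIF/2i 1 and KI LIF 2 (0.051 to 0.14). With all 20 libraries and a nuclease term Eif4a3 (−0.45, adjusted p = 0.11) and Eef1a2 (0.69, 0.055) were lost. Without KI replicate 1 in both media, calls over all genes rose from 1718 to 3384. The members' count rose to 17, with 8 of the 9 calls kept. The 9 added were Eif3c (0.52), Eef1akmt2 (0.98) and Eef2k (0.73) as higher and Eif3i (−0.87), Eif1 (−0.94), Eif4g3 (−1.52), Eif4h (−0.33), Eif5a (−0.42) and Pabpc1 (−0.47) as lower. In the same comparison 6 of 9 endoderm, 5 of 9 trophoblast and 1 of 8 fibroblast and feeder markers fell, and their part was not tested.

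**Figure D2:**
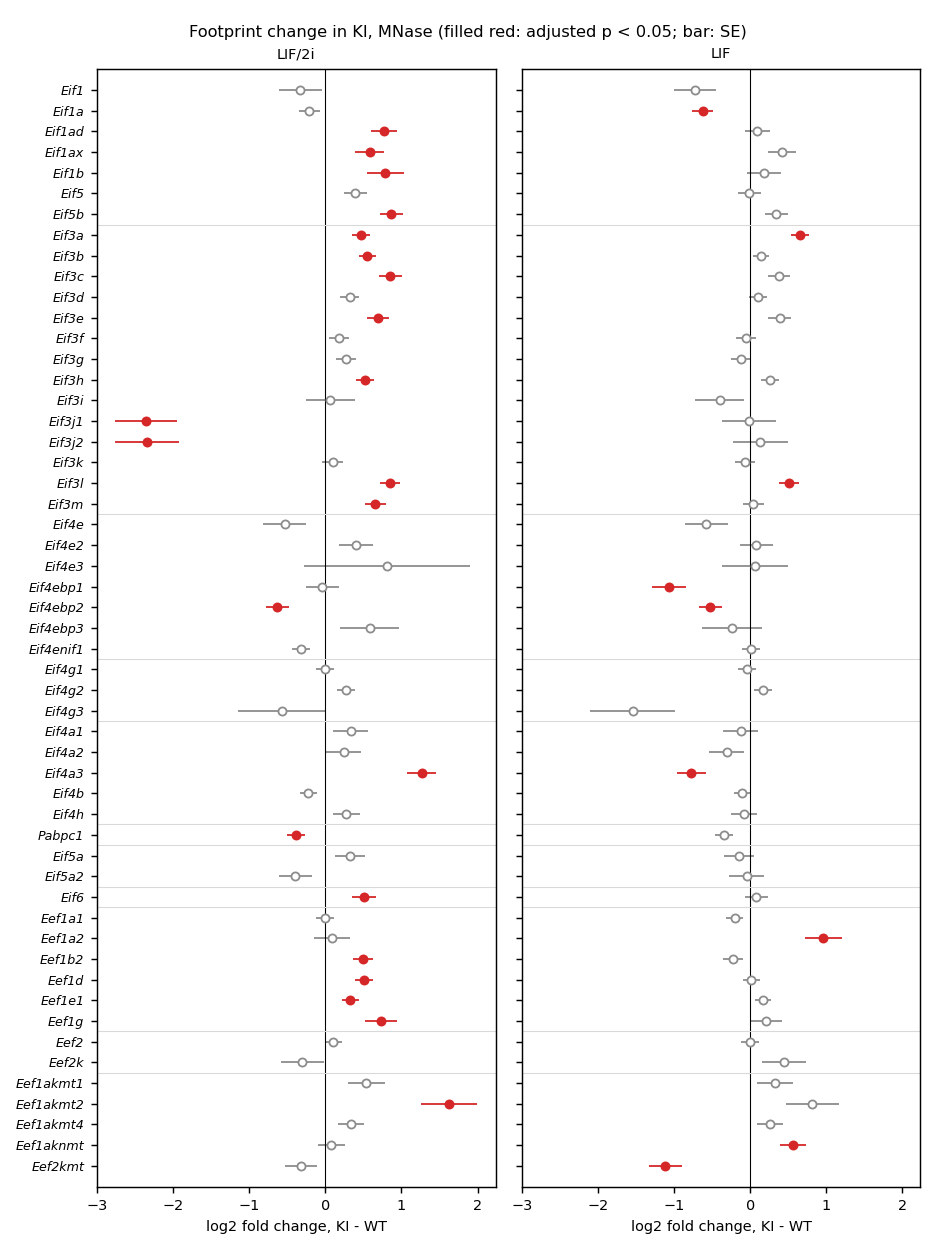
Log2 fold change (KI minus WT, bars are SE) of the 53 tested members with MNase in LIF/2i and in LIF, on a shared axis, with lines between role groups. Filled red points passed at an edgeR adjusted p under 0.05, 18 higher and 4 lower in LIF/2i and 4 higher and 5 lower in LIF. Eif4a3 passed in both media with opposite signs.

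Moving WT cells from LIF/2i to LIF raised 13 members and lowered 1 of 53 with MNase, against 9.99% higher and 11.0% lower of all tested genes, 21.0% in either direction. The members' median change was 0.15, against 0.01 over all genes, and 23 of 53 did not overlap between media, against 42.5%. Eif4e3, an eIF4E relative that binds the cap in an unusual way, had 0, 0 and 0.246 CPM in LIF/2i, against 1.83, 2.17 and 3.52 CPM in LIF. It was near absence in LIF/2i, with 1 read in the 3 libraries against 32 in LIF. The ratio of pooled rates was 29.2, with an exact 95% interval of 4.87 to 1188 that covers counting error only (edgeR adjusted p = 0.0017). Eif4g3, a scaffold related to eIF4G1, rose by 2.06 (SE 0.58, edgeR adjusted p = 0.023) from 19.9, 20.8 and 103 CPM to 210, 191 and 209 CPM. The third LIF/2i library stood far above the other 2 but below all LIF libraries.

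Among eIF3 subunits, Eif3g, which binds RNA, was at 304, 372 and 298 CPM in LIF/2i, against 562, 510 and 506 CPM in LIF, a rise of 0.70 (SE 0.13, edgeR adjusted p = 0.0025). Eif3b was at 531, 506 and 471 CPM in LIF/2i, against 713, 681 and 674 CPM in LIF, a rise of 0.46 (SE 0.11, edgeR adjusted p = 0.0087). For both genes the media were clearly apart. Eif3c rose by 0.56 and Eif3h by 0.41. Eif1b was at 9.57, 9.98 and 9.34 CPM in LIF/2i, against 15.97, 29.3 and 16.7 CPM in LIF, a rise of 1.11 (SE 0.24, edgeR adjusted p = 0.0064). Its LIF values did not overlap LIF/2i, though replicate 2 was far above the other LIF libraries. Eif1ad rose by 0.69 and Eif5b by 0.56.

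Eif4a3 rose from 11.7, 10.3 and 11.8 CPM to 21.9, 19.0 and 18.8 CPM, a log2 change of 0.81 (SE 0.20, edgeR adjusted p = 0.012). Eef1d, an exchange factor subunit, was at 128, 126 and 110 CPM in LIF/2i, against 162, 168 and 180 CPM in LIF, a rise of 0.49 (SE 0.12, edgeR adjusted p = 0.011). The 2 media did not overlap for either gene. Eif4ebp1 rose by 0.77 and Eef1akmt1, an eEF1A methyltransferase, by 0.89. Eif5a2, the second form of the hypusine-bearing factor eIF5A, fell by 0.70 on the log2 scale.

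Of these 14 calls, 5 held without any 1 library (Eif1b, Eif3b, Eif3g, Eif4a3 and Eif4e3). The count was 9 without replicate 1 of either WT medium and 7 without replicate 3 of either. Eef1d was lost without LIF 3 (adjusted p = 0.059), Eif1ad without LIF/2i 3 or LIF 3 (0.054 and 0.064), and Eif5b without LIF/2i 3 or LIF 1 (0.069 and 0.068), all WT. Eef1akmt1 was lost without WT LIF/2i 1 or 3 or WT LIF 2 (0.077 to 0.12). Eif3c and Eif4ebp1 were each lost without replicate 1 or 3 of either WT medium (0.059 to 0.078 and 0.078 to 0.12). Eif4g3 was lost without WT LIF/2i 1 or 2 or WT LIF 1 or 3 (0.055 to 0.090). Eif3h was lost without 1 of 7 libraries, any WT but LIF 1, or KI LIF/2i 2 or 3 (0.050 to 0.15). Eif5a2 was lost without 1 of 10, any but KI replicate 1 of either medium (0.052 to 0.13). With all 20 libraries and a nuclease term Eif4a3 (0.45, adjusted p = 0.082) and Eef1d (0.26, 0.080) were lost, so that 4 calls held in every setting tried. Without KI replicate 1, which enters this comparison only through the shared spread, 22 members passed, the same 14 and 8 more. Calls over all genes rose from 2690 to 4090 in that setting. In this comparison 8 of 9 tested trophoblast, 5 of 9 endoderm, 5 of 8 fibroblast and feeder and 1 of 4 neuroectoderm markers rose. Among them were the collagen genes Col1a1 (5.59), Col1a2 (8.33) and Col3a1 (7.13) and the smooth muscle genes Tagln (7.59) and Acta2 (4.11). The 11 fibroblast and feeder markers summed to 178 to 628 CPM in LIF/2i and to 343 to 1453 CPM in LIF, with Dcn and Lum at 0 in LIF/2i. The part of these markers in the members' changes was not tested.

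In KI cells the same move raised 5 members and lowered 4 of 53, against 8.37% and 10.3% of all tested genes, 18.7% in either direction. The members' median change was −0.04, against −0.00 over all genes, and 22 did not overlap between media, against 34.9%. Eif4e3 was at 0.153, 0.256 and 0.141 CPM in LIF/2i, against 3.23, 3.04 and 2.01 CPM in LIF, with a change of 3.73 (SE 0.56, edgeR adjusted p = 6.9e-04). It thus passed in both genotypes. Eif4a3 was at 26.7, 30.2 and 24.3 CPM in LIF/2i, against 13.8, 10.7 and 10.3 CPM in LIF, a change of −1.22 (SE 0.19, edgeR adjusted p = 7.1e-04). The media did not overlap.

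Eif3j1 was at 1.68, 1.15 and 0.565 CPM in LIF/2i, against 6.15, 4.63 and 5.58 CPM in LIF, a rise of 2.26 (SE 0.39, edgeR adjusted p = 0.0017). Eif3j2 was at 1.53, 1.15 and 0.565 CPM and at 6.46, 4.78 and 5.70 CPM, a rise of 2.37 (SE 0.40, edgeR adjusted p = 0.0015). The LIF values of KI cells were in the range of WT cells in both media for this pair of near-identical genes. Eef2kmt was at 51.5, 29.96 and 33.6 CPM in LIF/2i, against 23.7, 17.1 and 18.9 CPM in LIF, a change of −0.95 (SE 0.21, edgeR adjusted p = 0.0067). Eef1aknmt was at 19.1, 19.5 and 19.6 CPM in LIF/2i, against 36.8, 26.1 and 32.1 CPM in LIF, a rise of 0.70 (SE 0.17, edgeR adjusted p = 0.012). The media did not overlap for either methyltransferase. Eif4enif1, the eIF4E transporter, rose by 0.46, while Eif3m fell by 0.52 and Eef1g by 0.63 on the log2 scale.

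Replicate numbers may pair the KI libraries across media, though numbers 2 and 3 correlated as much with each other as with themselves. The KI values above were fitted without this pairing. A fit with the replicate number as a block called 10 members, the same 9 and Eif1a at −0.39 (edgeR adjusted p = 0.046). Without KI replicate 1 in both media 11 passed, the same 9 with Eef1e1 (−0.43) and Eif4ebp1 (−0.51) as lower. Calls over all genes rose from 2395 to 3166 in that setting. Eif3m was lost without KI LIF/2i 2 or KI LIF 3 (adjusted p = 0.089 and 0.060), and Eif4enif1 without KI LIF/2i 2 or KI LIF 2 or 3 (0.052 to 0.086). Eef1g was lost without 1 of 9 libraries, any but WT LIF/2i 2 or 3 and KI LIF/2i 1 (0.052 to 0.18). With libraries thinned to the depth of the smallest, 5 members passed, all among the 9, and Eef2kmt was among those lost (−0.66, adjusted p = 0.097). With all 20 libraries and a nuclease term Eef1g (−0.36, adjusted p = 0.11), Eif3m (−0.27, 0.19) and Eif4enif1 (0.29, 0.052) were lost. Library totals alone moved the median of all genes by 0.10 and gave 7 members higher and 2 lower, and over all genes 1423 higher and 1023 lower in place of 1072 and 1323. Markers of other cell types also rose in KI, 4 of 8 fibroblast and feeder genes, 3 of 9 endoderm, 1 of 9 trophoblast and 2 of 4 neuroectoderm genes. Hand1 (6.79), Col1a2 (5.20), Sox1 (3.25) and Pax6 (2.75) were among them. Fibroblast and feeder markers summed to 182 to 577 CPM in LIF/2i and to 466 to 994 CPM in LIF, and the part of these markers was not tested.

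**Figure D3:**
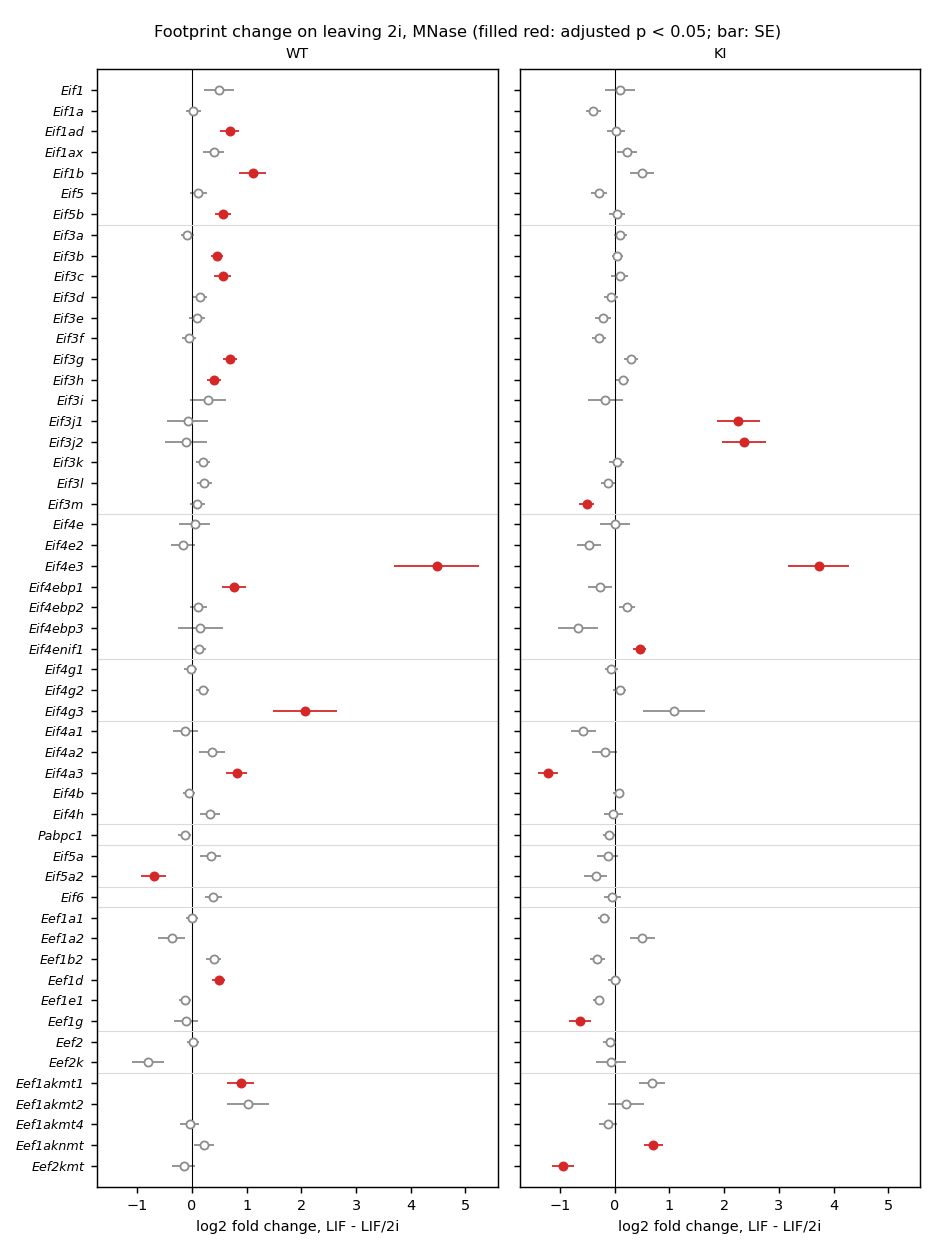
Log2 fold change (LIF minus LIF/2i, bars are SE) of the 53 tested members with MNase in WT and in KI cells, on a shared axis, with lines between role groups. Filled red points passed at an edgeR adjusted p under 0.05, 13 higher and 1 lower in WT and 5 higher and 4 lower in KI. Eif4e3 rose in both genotypes.

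Whether the genotype effect differed between media was tested directly, and 1 member passed this interaction, where 0.336% of all tested genes did. Eif4a3 differed by −2.04 (SE 0.27, edgeR adjusted p = 0.0086), since KI was above WT in LIF/2i and below it in LIF. The call held without any 1 of the 12 libraries (highest adjusted p = 0.035) and in all 8 other settings tried. It rested on 33 to 236 reads per MNase library. For the other members the tests in each medium are given side by side and no difference between media was called. DESeq2 added Eif3j1 (2.37), Eif3j2 (2.51) and Eef1b2 (−0.70), and leaving out KI replicate 1 in both media added Eif3j1 (2.60), Eif3j2 (2.66) and Eif4ebp1 (−1.28). Over all genes these settings gave 216 and 437 calls, against 43 in the main fit. Leaving out only replicate 1 of KI in LIF/2i gave 3 calls, and only that of KI in LIF gave 2.

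**Figure D4:**
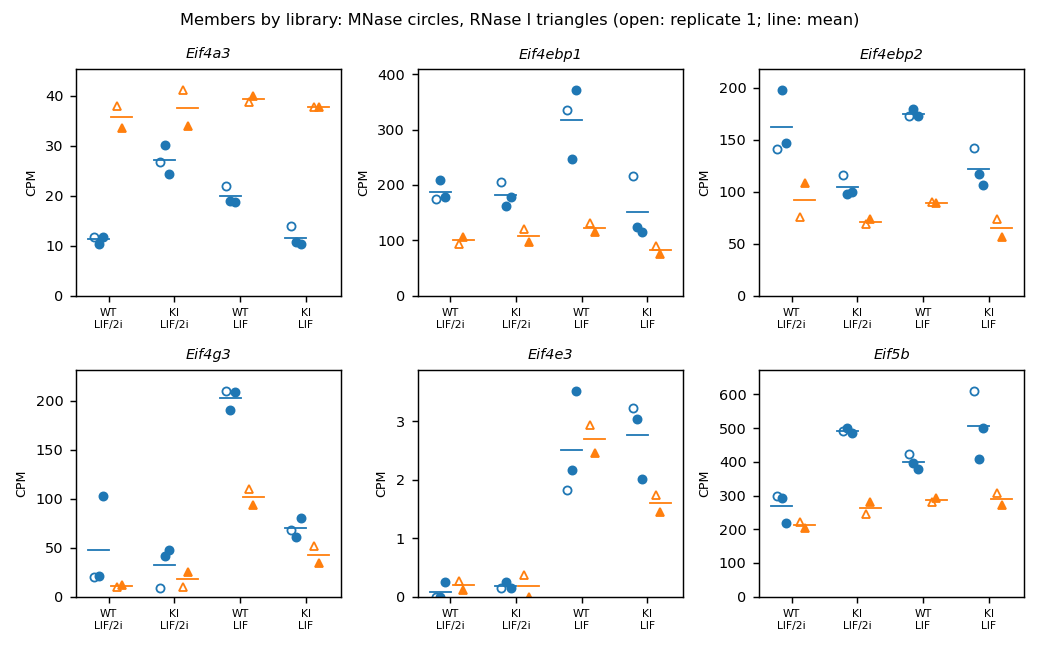
Footprint levels (CPM, linear axes from 0) of 6 members in all 20 libraries by genotype and medium. Blue circles are MNase and orange triangles RNase I libraries, each nuclease scaled on its own, open symbols are replicate 1 and lines are group means. Eif4a3 spans 10.3 to 30.2 CPM with MNase and 33.5 to 41.2 CPM with RNase I.

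The RNase I libraries are separate libraries of the same groups, with 2 per group. Between KI and WT edgeR called 0 of 53 members in LIF/2i, where 0.232% of all genes passed, and 0 in LIF, where 0.116% passed. At an unadjusted p under 0.05, 4 and 9 members were counted, and DESeq2 called 0 in both media. In simulated data, 29.9% of tested genes given a log2 change of 1 passed with RNase I in LIF/2i. The counts of 0 therefore do not show equal levels. The median change of the members was 0.12 in each medium, and 16 and 25 of 53 did not overlap between genotypes, against 43.5% and 46.5% of all genes.

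With RNase I in LIF/2i Eif4a3 was at 38.0 and 33.5 CPM in WT and at 41.2 and 33.9 CPM in KI, and in LIF at 38.7 and 39.8 CPM in WT and at 37.8 and 37.7 CPM in KI. The 4 groups thus lay in one narrow range, with genotype changes of 0.08 (SE 0.19) and −0.06 (SE 0.20). Eif3l was at 1088 and 1052 CPM in WT and 1174 and 1283 CPM in KI in LIF/2i, a change of 0.20 (SE 0.16). Eif5b was at 221 and 203 CPM in WT and 246 and 282 CPM in KI, a change of 0.32 (SE 0.14). In both genes KI was above WT in LIF/2i, as with MNase, without passing the test. Eif4ebp1 in LIF was at 131 and 115 CPM in WT and 89.0 and 75.4 CPM in KI, a change of −0.58 (SE 0.19) that did not pass (edgeR adjusted p = 0.27). Eef1a2 in LIF was at 18.5 and 15.0 CPM in WT and 15.2 and 16.4 CPM in KI. Its change was −0.08 (SE 0.29), without the rise seen with MNase. The other LIF calls with MNase kept their sign without passing. These were Eif3l (0.14), Eif3a (0.32), Eef1aknmt (0.64), Eif1a (−0.21), Eif4ebp2 (−0.46) and Eef2kmt (−0.68). Summed eIF3 reached 6945 ± 985 CPM in KI against 6135 ± 242 CPM in WT in LIF/2i, and 7356 ± 246 against 6770 ± 311 CPM in LIF (SD, n = 2).

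The move from LIF/2i to LIF in WT changed 4 members with RNase I, 2 higher and 2 lower, against 7.17% higher and 6.47% lower of all genes, 13.6% in either direction. Its media did not overlap for 35 of 53 members, against 64.8% of all genes. Eif4g3 was at 9.77 and 12.01 CPM in LIF/2i, against 110 and 93.7 CPM in LIF, a rise of 3.24 (SE 0.42, edgeR adjusted p = 0.0031). The media were far apart, and the call held without any 1 of the 8 libraries. Eif4e3 rose by 3.54 (edgeR adjusted p = 0.020), on 23 reads against 7. Eif5a2 fell by 1.31 (edgeR adjusted p = 0.020) and Eef1a2 by 0.95 (edgeR adjusted p = 0.044) on the log2 scale. Eif4e3 and Eif5a2 were lost without any 1 of the 4 WT libraries (adjusted p = 0.10 to 0.14 and 0.072 to 0.14), and Eef1a2 without any 1 of these or of the KI LIF libraries (0.054 to 0.25). Leaving out any 1 of the 4 WT libraries left 1 call. In KI edgeR called 0 members (8 at an unadjusted p under 0.05), where 3.46% of all genes passed, 1.41% higher and 2.04% lower, and 19 of 53 did not overlap, against 43.3%. DESeq2 called 1, Eif4g3 at 1.33, and 4 passed without KI LIF/2i replicate 2.

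The nuclease comparison moved most start-site and eIF4G scaffold genes one way. In 16 libraries, replicates 1 and 2 of each group with each nuclease, 24 of 53 members were lower with RNase I than with MNase and 5 were higher. Over all 12732 tested genes 16.4% were lower and 15.7% higher, 32.0% in either direction. The members' median log2 difference was −0.20, against 0.00 over all genes. TOP genes counted 7 lower and 0 higher of 10, with a median of −0.37, and the other members 17 lower and 5 higher of 43, with a median of −0.15. By role, 6 of 7 start-site factors, all 3 eIF4G genes and 4 of 7 genes for cap-binding proteins and their inhibitors were lower. The 4 were Eif4e2, Eif4ebp1, Eif4ebp2 and Eif4enif1, while Eif4e (−0.20) and Eif4e3 (0.06) did not pass.

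Pabpc1 ran from 341 to 564 CPM with MNase (median 429) and from 138 to 230 CPM with RNase I (median 166). The 8 libraries of each nuclease did not overlap, and the difference was −1.35 (SE 0.10, edgeR adjusted p = 1.7e-07). Eif4b, the cofactor of eIF4A whose pyrimidine run is printed above, ran from 372 to 503 CPM with MNase (median 425) and from 173 to 260 CPM with RNase I (median 199). It did not overlap either, at −1.08 (SE 0.09, edgeR adjusted p = 2.8e-07). Eif4ebp1 ran from 122 to 330 CPM (median 204) and from 75.9 to 131 CPM (median 102), and Eif4ebp2 from 94.0 to 198 CPM (median 140) and from 56.4 to 110 CPM (median 76.4). Here the ranges met, with differences of −0.95 (SE 0.12, edgeR adjusted p = 2.5e-05) and −0.82 (SE 0.11, edgeR adjusted p = 2.8e-05). Eif4g2, an eIF4G relative that does not bind eIF4E, ran from 834 to 1081 CPM (median 996) and from 511 to 864 CPM (median 649), a difference of −0.58 (SE 0.08, edgeR adjusted p = 4.9e-05).

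Against this direction, Eif4a3 ran from 10.2 to 29.1 CPM with MNase (median 16.1) and from 34.0 to 41.9 CPM with RNase I (median 38.7). The groups did not overlap, at 1.18 (SE 0.16, edgeR adjusted p = 4.8e-05). Eif4a1 was higher with RNase I by 1.195, and Eif1ad, Eif3l and Eef2kmt by 0.31, 0.28 and 0.39. Of the 53 members 6 did not overlap between the nucleases (Pabpc1, Eif4b, Eif4a3, Eif4a1, Eef2 and Eif4g1), against 4.47% of all genes.

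The other members lower with RNase I were, among start-site factors, Eif1 (−0.65), Eif1a (−0.49), Eif1ax (−0.76), Eif1b (−0.66), Eif5 (−0.73) and Eif5b (−0.64). Of eIF3 they were Eif3e (−0.37), Eif3f (−0.28), Eif3j1 (−0.86) and Eif3j2 (−0.88). Of the classes of cap-binding proteins and inhibitors, scaffolds and helicases they were Eif4e2 (−0.67), Eif4enif1 (−0.52), Eif4g1 (−0.32), Eif4g3 (−0.72) and Eif4h (−0.28). Of the elongation factors they were Eif5a (−0.41), Eef1a1 (−0.41), Eef1b2 (−0.37) and Eef2 (−0.46). Of the 29 calls, 21 held without any 1 of the 16 libraries. Eif3j1 and Eif3j2 were lost without WT LIF/2i MNase replicate 2 (adjusted p = 0.050 and 0.052). Eif1 was lost without WT LIF/2i MNase 1 or WT LIF RNase I 1 or 2 (0.052 to 0.064), and Eif4g3 without WT LIF/2i MNase 2, WT LIF RNase I 2 or KI LIF/2i MNase 2 (0.051 to 0.081). Eef1a1 and Eif4h were each lost without 1 of 8 libraries (0.052 to 0.072 and 0.050 to 0.084), Eif3l without 1 of 10 (0.051 to 0.098) and Eef2kmt without 1 of 12 (0.055 to 0.13).

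**Figure D5:**
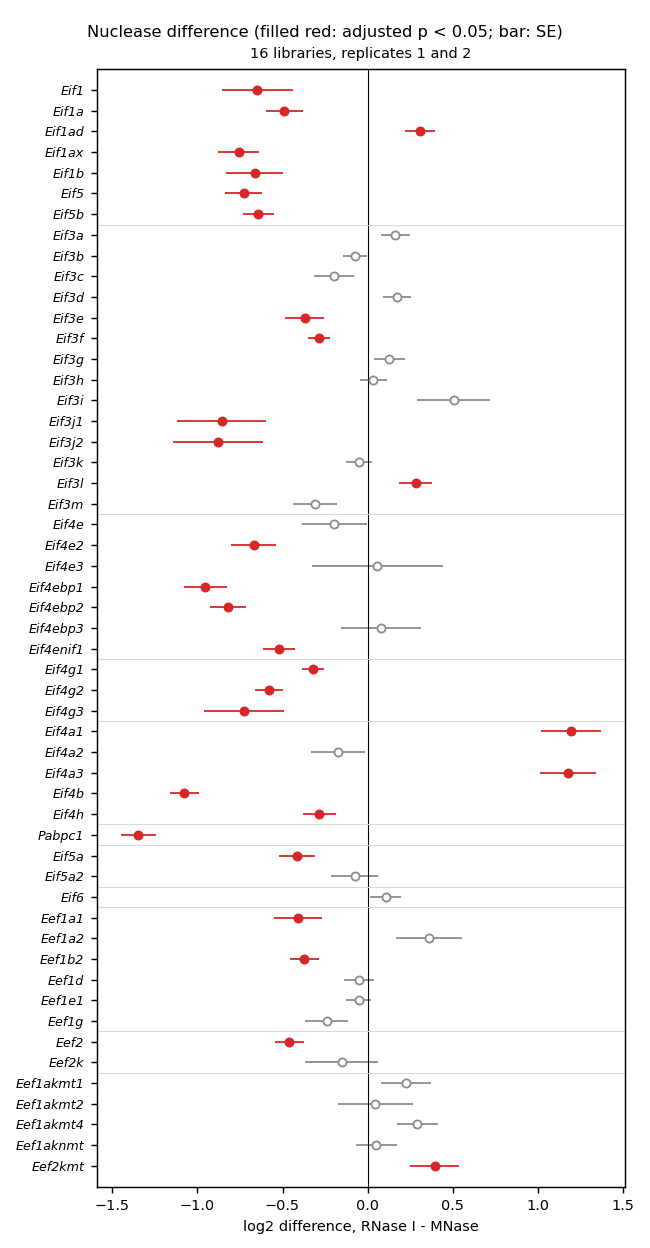
Log2 difference between nucleases (RNase I minus MNase, bars are SE) of the 53 tested members over 16 libraries, with lines between role groups. The fit had no replicate block. Filled red points passed at an edgeR adjusted p under 0.05, 24 to the left of 0 and 5 to the right. Pabpc1 and Eif4b lie farthest to the left, Eif4a1 and Eif4a3 farthest to the right.

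Replicate numbers may also pair the MNase and RNase I libraries, with correlations of 0.49 to 0.71 between the same numbers. The nuclease values above were fitted without this pairing. The labels do not state this pairing. With the replicate number within each group as a block, calls over all genes rose from 4080 to 6001, 2979 lower and 3022 higher. Of the members 36 passed the nuclease test, 26 lower and 10 higher, the same 29 and 7 more. The added ones were Eif3i (0.51), Eif3a (0.16), Eif3d (0.17), Eef1akmt1 (0.23) and Eef1akmt4 (0.29) as higher and Eif3c (−0.21) and Eif3m (−0.33) as lower.

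Whether a genotype or medium effect differed between nucleases was tested in the same 16 libraries. Without the block 0 members and 0% of all genes passed in each of the 4 tests by edgeR, and DESeq2 called 0 members. At an unadjusted p under 0.05, 5 members were counted for genotype in LIF/2i, 5 for genotype in LIF, 1 for medium in WT and 4 for medium in KI. With the block, the genotype difference in LIF/2i was lower with RNase I for 1145 of all 12732 tested genes and higher for 805. Of the 53 members it was higher for 0 and lower for 7. These were Eif4a3 (−1.27, SE 0.24, edgeR adjusted p = 0.0024), Eif4a2 (−0.85), Eif3i (−0.59), Eif3e (−0.56), Eif3l (−0.54), Eef1d (−0.52) and Eif5b (−0.41). In LIF 1 member, Eef1a1, differed by 0.82 with the block, and for medium in KI Eif4a3 (1.19) and Eif4a2 (0.59) did. Over all tested genes 94 passed for genotype in LIF and 119 for medium in KI with the block.

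Some members varied with the replicate number rather than with a group, and were singled out after their values were seen. Eif3i, a propeller-shaped eIF3 subunit, was at 275 and 237 CPM in KI replicate 1 in LIF/2i and LIF and at 108 to 125 CPM in KI replicates 2 and 3 with MNase. With RNase I it was at 280 and 319 CPM in KI replicate 1 and at 145 and 132 CPM in KI replicate 2, and WT libraries lay from 161 to 204 CPM with MNase. KI replicate 1 was thus above the other KI libraries in both media with both nucleases. With RNase I the WT libraries lay from 254 to 312 CPM, near KI replicate 1 and above KI replicate 2. Eif4e, the cap-binding protein, was at 81.6 and 95.2 CPM in WT replicate 2 in LIF/2i and LIF, and at 37.0 to 64.2 CPM in the other WT libraries. With RNase I it was at 72.4 and 69.8 CPM in WT replicate 2 and at 37.3 and 37.6 CPM in WT replicate 1.

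Genes around the members were followed in lists of termination, regulation, helicases, factor modification and other poly(A)-binding proteins. Their counts stand against 13.8% higher and 11.5% lower of all tested genes in LIF/2i, and 7.36% and 6.05% in LIF. The lists were chosen with earlier results of these data known, so their counts only describe the listed genes. Results without single libraries are not given for them. In KI against WT in LIF/2i, 3 of 8 termination and recycling genes rose, Etf1, the release factor, by 0.65, Gspt2, its GTPase partner, by 0.92, and Abce1, which splits ribosomes, by 0.90. All 3 auxiliary helicases rose, Ddx3x by 0.62, Dhx29 by 0.81 and Dhx36 by 0.96. Of 8 enzymes that make hypusine on eIF5A or diphthamide on eEF2, Dph2, Dph3, Dph6 and Dph7 rose by 0.76, 0.84, 0.72 and 0.71, and Dohh fell by 0.78 on the log2 scale. Of 14 regulators of cap-dependent initiation, Mlst8 (0.77), Paip1 (0.46) and Cyfip1 (0.80) were higher and the kinase Mtor (−0.80) and Gigyf2 (−0.42) lower.

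In LIF, 2 of 8 termination genes, 2 of 3 helicases, 1 of 8 modifying enzymes and 1 of 14 regulators were higher in KI, and 2 regulators lower. Gspt2 (1.02), Abce1 (0.74), Ddx3x (0.45), Dhx36 (0.82), Dph6 (0.67) and Cyfip1 (0.40) were the higher ones. Mknk2, a kinase of eIF4E, was lower (−0.66), as was Larp1, which binds TOP mRNAs (−0.46). Leaving 2i in WT raised Larp1 by 0.62 and Pelo, a ribosome rescue factor, by 0.78, and lowered Paip1 (−0.43). In KI it lowered Mlst8 (−1.004), Paip1 (−0.82), Cyfip1 (−0.67) and Pabpc4 (−2.14). Pabpc4, a paralog of Pabpc1, was higher in KI in LIF/2i by 1.99, and its genotype effect differed between media by −3.48 (SE 0.67, edgeR adjusted p = 0.046). With RNase I, leaving 2i in WT raised Pelo by 1.03 and lowered Mlst8 (−0.79), Paip1 (−0.68) and Cyfip1 (−0.53).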

How the data were processed

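Ribosome footprints were counted in 20 libraries. The deposited counts are raw whole-number counts in coding sequences. The submitters' processing notes name UMI-tools 1.0.1, Bowtie 1.3.0 and cutadapt 3.4. The genome build and the handling of reads that map to several places are not given in the sources used here. Genes with near-identical copies are therefore uncertain. No RNA libraries were used, so a footprint difference combines mRNA level and translation.

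Tests were run with edgeR 4.0.16 under R 4.3.3 (filterByExpr, TMM normalization, quasi-likelihood test, two-sided, Benjamini-Hochberg adjustment over all tested genes, threshold 0.05). The 12 MNase libraries, the 8 RNase I libraries and the 16 libraries of replicates 1 and 2 were fitted separately. Their biological coefficients of variation were 0.210, 0.218 and 0.215. CPM are scaled within the libraries of each fit. The procedure was tested on simulated data, with 100 genes given each size of change. The shares are of those genes left after the filter on low counts. Far fewer genes changed in the simulation than were called between genotypes in LIF/2i with MNase, which makes its adjusted threshold stricter. For a log2 change of 1 between KI and WT in LIF/2i, 43.9% passed with MNase and 29.9% with RNase I. For a log2 change of 2 these were 77% and 88.8%. For the nuclease comparison 80.8% passed at a log2 change of 1 and 97.9% at 2. DESeq2 1.42.0, other scalings, no filter, thinning, pooled nucleases, a replicate block and leaving out libraries were the alternatives.

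Members and gene lists were chosen with earlier results of these data known. Every passing member was named, with values per library for up to 6 of smallest adjusted p in each MNase comparison and for interaction and nuclease calls. Choices by level per codon and by protein identity could not be applied, since no coding lengths or protein sequences were used here. Levels of single genes are not compared with each other.

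Pairing was checked from correlations of deviations between samples of the same replicate number. These were −0.10 to 0.12 between genotypes and 0.015 to 0.078 between media in WT with MNase, and 0.32 to 0.56 between media in KI, where numbers 2 and 3 gave 0.37 and 0.40 when crossed. Across nucleases they were 0.49 to 0.71.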

Additional observations from a re-analysis of the deposited data

Results flagged for a closer look

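The genotype effect on Eif4a3 differed between LIF/2i and LIF by −2.04 on the log2 scale with MNase, by a direct test of that difference. With MNase, KI was above WT in LIF/2i and below it in LIF. With RNase I the gene lay between 33.5 and 41.2 CPM in all 8 libraries, and its level with MNase was lower in each of the 4 groups.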

How the results depend on the processing

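Counts of members passing under leaving out 1 library ranged, with MNase, from 13 to 22 for KI against WT in LIF/2i (22 as reported), 3 to 11 in LIF (9), 7 to 16 for medium in WT (14), 6 to 11 in KI (9) and 1 to 3 for the interaction (1). With RNase I they ranged from 1 to 5 for medium in WT (4) and 0 to 4 in KI (0), and were 0 throughout for genotype. Without the replicate block, the nuclease count ranged from 23 to 31 (29), and the 4 tests of a difference between nucleases stayed at 0. Without KI replicate 1 in both media the counts were 17 for KI against WT in LIF, 22 for medium in WT and 4 for the interaction. Over all genes they were 3384, 4090 and 437, against 1718, 2690 and 43 with that replicate. Thinning gave 5 for medium in KI. The interaction count was 4 with DESeq2 and 3 with all 20 libraries. Medium in KI with RNase I gave 1 with DESeq2 and 1 with no filter, Eif4g3 each time. The replicate block gave 7, 1 and 2 for the tests of a difference between nucleases in genotype in LIF/2i, genotype in LIF and medium in KI, and 0 for medium in WT. Over all genes it gave 1950, 94, 119 and 3 in the same order. Elsewhere it gave 21 and 9 members for genotype with MNase in LIF/2i and LIF, 14 and 10 for medium in WT and KI, and 36 for the nuclease. Over all genes it gave 3426, 1883, 2840, 2565 and 6001 in that order. Between genotypes, and between media in WT, samples share only a number. RLE size factors changed no call of a member. No called change of a member reversed its sign under any alternative run, but the uncalled Eif3i value for genotype in LIF/2i did, from 0.07 to −0.45 without KI replicate 1. The cause of these shifts was not tested. Low counts limit Eif4e3, Eif3j1 and Eif3j2.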
